A study of Mus musculus with 4 samples.

Results

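Proteasome subunit genes were followed in direct RNA nanopore reads of J1 mouse embryonic stem cells. Members were the gene symbols of the deposited table that begin with Psm, followed by a letter from a to g, a number and at most 1 further letter, and all reads with a tail length above 0 were used. This rule found 47 of the 13831 symbols, with 24075 of 1903919 reads, or 1.26% of all reads. Of these, 17 were core particle genes (Psma and Psmb), 25 were regulatory particle and activator genes (Psmc, Psmd and Psme), and 5 were the inhibitor Psmf1 and the assembly chaperones Psmg1 to Psmg4.

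The study set wild-type (WT) cells against cells of the same J1 background labelled Mov10 KO, a knockout of the RNA helicase Mov10, with 2 libraries of each genotype (WT 1, WT 2, KO 1 and KO 2) and no treatment. All cells were grown in serum with LIF, the cytokine that keeps mouse stem cells undifferentiated. In direct RNA sequencing the native strand passes through a pore, and each read gives a molecule together with an estimate of its poly(A) tail in nucleotides (nt). The labels do not say whether the libraries of a genotype came from separate cultures or how many KO clones were used. The p-values therefore cover only the spread between these libraries. In both tests the variance of a gene was moderated with that of all tested genes, so it is not the gene's own spread alone.

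The proteasome is the protease that degrades proteins tagged with ubiquitin. Its barrel-shaped core is built of outer rings of α subunits (Psma genes), which form the gate, and inner rings of β subunits (Psmb genes), of which Psmb5, Psmb6 and Psmb7 carry the proteolytic sites. The regulatory particle caps the core: its ring of ATPases (Psmc genes) unfolds substrates and opens the gate, and its non-ATPase subunits (most Psmd genes) bind ubiquitin and remove it. Psme genes encode other activators that dock on the core, and inducible β subunits replace the constitutive ones in cells exposed to interferon. In embryonic stem cells, high proteasome activity has been linked to the maintenance of the undifferentiated state.

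The libraries held from 351133 reads in WT 2 to 683239 reads in KO 1. The 11 stem cell markers had reads in all 4 libraries and summed to between 7386 and 9754 reads per 1000000 reads (RPM). Of 8 fibroblast feeder markers 7 had no read, and the list summed to at most 14.0 RPM. The 8 markers of differentiating cells summed to at most 8.54 RPM. Mov10 itself had 26 and 14 reads in the WT libraries and 0 and 1 in the KO libraries. Its exact 95% Poisson intervals were 38.6 to 86.7 RPM and 21.8 to 66.9 RPM in WT, and they ended at 5.40 and 13.0 RPM in KO. The log2 change was -5.09 and missed the threshold (limma adjusted p = 0.0553), with 3 of 8 alternatives past it and a range of adjusted p from 2.06e-06 to 0.994. In bulk RNA, fewer cells of a type and less RNA per cell cannot be told apart.

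The read number of each member was examined first, as the level of its RNA. Each read stands for a molecule, so read numbers were not divided by transcript length. Any effect of length on the chance of a read was not tested. Levels are given as RPM after median-of-ratios scaling between libraries ("scaled RPM"), and 44 of the 47 members had the mean of at least 10 reads that was required for testing. The core genes had the higher levels. In the order WT 1, WT 2, KO 1, KO 2, used for all series of 4 values here, their medians were 538.9, 610.7, 607.1 and 522.5 scaled RPM. The medians of the regulatory genes were 141.7, 211.9, 181.9 and 167.2. The 24 tested regulatory genes included 3 assembly chaperones and 4 activators, whose medians were lower than these in each library. The ATPase genes alone had medians of 247.9, 322.1, 251.3 and 211.4. The non-ATPase subunit genes alone had 164.4, 228.7, 184.7 and 177.1. In each library the core median was above the regulatory median, by 3.8-, 2.88-, 3.34- and 3.13-fold, or 3.29 ± 0.392 (SD, n = 4 libraries). Both stood above the median of all 4815 tested genes, which lay between 52.98 and 53.14 scaled RPM. The order of the members was much the same in every library, with Spearman's rho from 0.957 to 0.978 over the 44 members for the 6 pairs of libraries.

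**Figure D1:**
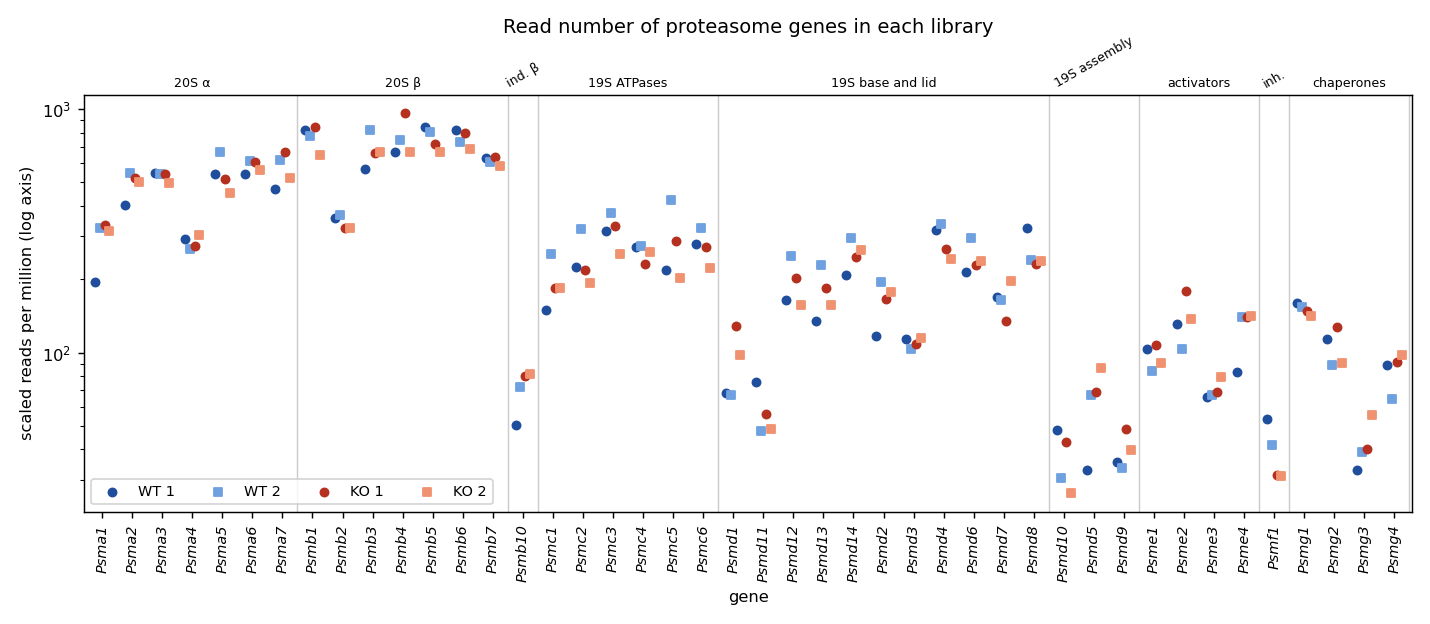
Scaled RPM (log axis) of the 44 proteasome genes tested for read number, by role, with 1 point for each of the 4 libraries (blue WT, red KO). Constitutive core genes lie highest, apart from a lower set with Psma1, Psma4 and Psmb2, and Psmd9, Psmd10, Psmf1 and Psmg3 lie lowest.

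Among the α subunits, Psma6 and Psma7 had the most reads. Psma6 had 538.9 and 610.7 scaled RPM in WT and 607.1 and 562.4 in KO. Psma1 and Psma4 had means of 291.9 ± 65.3 and 284.2 ± 17.4 (SD, n = 4), lower than the other 5 constitutive α genes in every library. The testis-type subunit Psma8 had 8, 1, 4 and 3 reads. These counts overlap between the genotypes.

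Among the constitutive β subunits, 6 of 7 had means from 612.6 to 770.9 scaled RPM. The exception was Psmb2, a non-catalytic subunit, with 356.7 and 368.1 in WT and 325.0 and 325.5 in KO. It was the lowest of the 7 in each library. Psmb5 (chymotrypsin-like activity) had 839.9 and 803.1 in WT and 720.2 and 668.6 in KO. Psmb6 (caspase-like) had 822.2, 730.6, 793.3 and 684.1, and Psmb7 (trypsin-like) had 627.4, 607.9, 632.9 and 582.3. Psmb4, with 1501 reads, had the most reads of any member.

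The inducible counterparts of these subunits had far fewer reads. Psmb10, which replaces Psmb7, had 50.6 and 72.5 scaled RPM in WT and 80.2 and 81.9 in KO. Both KO libraries were above both WT libraries, but the change did not pass the test (log2 change 0.41 with a standard error of 0.34, limma adjusted p = 0.710). Psmb9, which replaces Psmb6, had 2, 2, 4 and 2 reads. No read carried the symbol of Psmb8, which replaces Psmb5, or of the thymus subunit Psmb11. At a 1-sided 95% limit, a count of 0 allows at most 3 counts, or 6.83, 8.54, 4.39 and 6.98 RPM in the 4 libraries. The exact Poisson interval used for Mov10 is wider. For 0 reads it ended at 8.39 RPM in WT 1 and 5.40 RPM in KO 1. These limits cover counting error only.

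The 6 ATPase genes of the regulatory particle spanned a narrow range, from Psmc1 with a mean of 192.9 ± 43.8 scaled RPM to Psmc3 with 318.5 ± 49.2 (SD, n = 4). Base and lid subunits spread more widely. Psmd4, a ubiquitin receptor, had 318.8 and 337.4 in WT and 266.3 and 241.3 in KO. Psmd14, the deubiquitinase of the lid, had 207 and 295.6 in WT and 247.7 and 263.5 in KO, with the genotypes overlapping. Psmd11, also a lid subunit, had the fewest reads of this group in total, at 75.9, 47.4, 55.8 and 48.7 scaled RPM.

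Genes whose products assemble or regulate the particle spanned a wide range. The assembly chaperones of the regulatory particle Psmd5, Psmd9 and Psmd10 had means from 37.1 to 63.7 scaled RPM. Psmf1, an inhibitor of the core in vitro, had 53.1 and 41.8 in WT and 31.5 and 31.0 in KO. The chaperones of core assembly ranged from Psmg3 with 41.8 ± 9.55 to Psmg1 with 150.5 ± 7.61 (SD, n = 4). Of the activators, Psme2 had the most reads in total, with 131.6, 103.2, 179.0 and 137.3 scaled RPM. Its partner Psme1 had a mean of 96.4 ± 11.1, and Psme4, the large nuclear activator, had 126.2 ± 28.5 (SD, n = 4). The near-identical copy Psme2b had 4 reads in all, and 98.9% of Psme2 reads lay on transcripts that also carried its symbol, so reads of the pair cannot be assigned with certainty. The same limit holds for Psmb3, Psmb5, Psmb7, Psmg1 and part of Psmd2, whose transcripts also carried reads labelled with other symbols.

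Read numbers were then compared between KO and WT with limma's voom. Of the 44 members 0 passed an adjusted p of 0.05, against a background of 0% of the 4815 genes tested. At an unadjusted p under 0.05 there was 1 member, or 2.27%, against 10.3% of all tested genes. A second model, limma's trend on log2 RPM, also called 0 members. The libraries of the genotypes did not overlap for 9 members with higher values in KO, against 19.4% of all genes, and for 11 with lower values, against 21.3%. These shares, 20.5% and 25% of the members, are near the background. The median log2 change was -0.03 over the members, with 20 of 44 above 0 (45.5%, against 49.4% of all tested genes), and -0.01 over all tested genes. When libraries were scaled by their total reads, the medians became 0.09 and 0.11, and 29 of 44 members were above 0. The median standard error over the members was 0.28.

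The role groups had these values. Over the core genes the median was -0.02 (7 of 15 above 0), and over the regulatory genes it was -0.07 (10 of 24 above 0), both on the log2 scale. The sign of both depended on single libraries. Without KO 2 the core median was 0.04 (10 of 15 above 0), and the regulatory median was 0.12 without WT 2 (13 of 24 above 0) and 0.0044 without KO 2. The 6 ATPase genes were all below 0, from -0.38 for Psmc2 to -0.07 for Psmc1, with a median of -0.26. None of them passed the test (limma adjusted p from 0.653 to 0.954). The median was -0.12 without WT 2, when 4 of 6 were below 0, -0.11 without KO 2, -0.43 without WT 1 and -0.42 without KO 1. It was -0.14 under scaling by total reads, with 5 of 6 below 0. The 4 activators tested were above 0, from 0.08 for Psme1 to 0.43 for Psme2, and none passed (limma adjusted p from 0.646 to 0.951).

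The smallest unadjusted p belonged to Psmd1, a large scaffold subunit of the base. Its WT libraries held 27 and 24 reads, and its KO libraries 90 and 44. On the scaled level this was 68.3 and 66.9 RPM in WT and 128.9 and 97.4 RPM in KO. Both KO libraries were above both WT libraries, with a log2 change of 0.73, a standard error of 0.33 and a limma adjusted p of 0.461. The 11 alternatives gave log2 changes from 0.53 to 0.92 and adjusted p-values from 0.235 to 0.999. Psmd5, a chaperone of base assembly, had 32.9 and 66.9 scaled RPM in WT and 68.7 and 86.3 in KO, a log2 change of 0.69 (limma adjusted p = 0.561), which was 0.16 without WT 1 and 1.17 without WT 2. Psmf1 had a log2 change of -0.60, with both KO libraries below both WT libraries (limma adjusted p = 0.629).

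**Figure D2:**
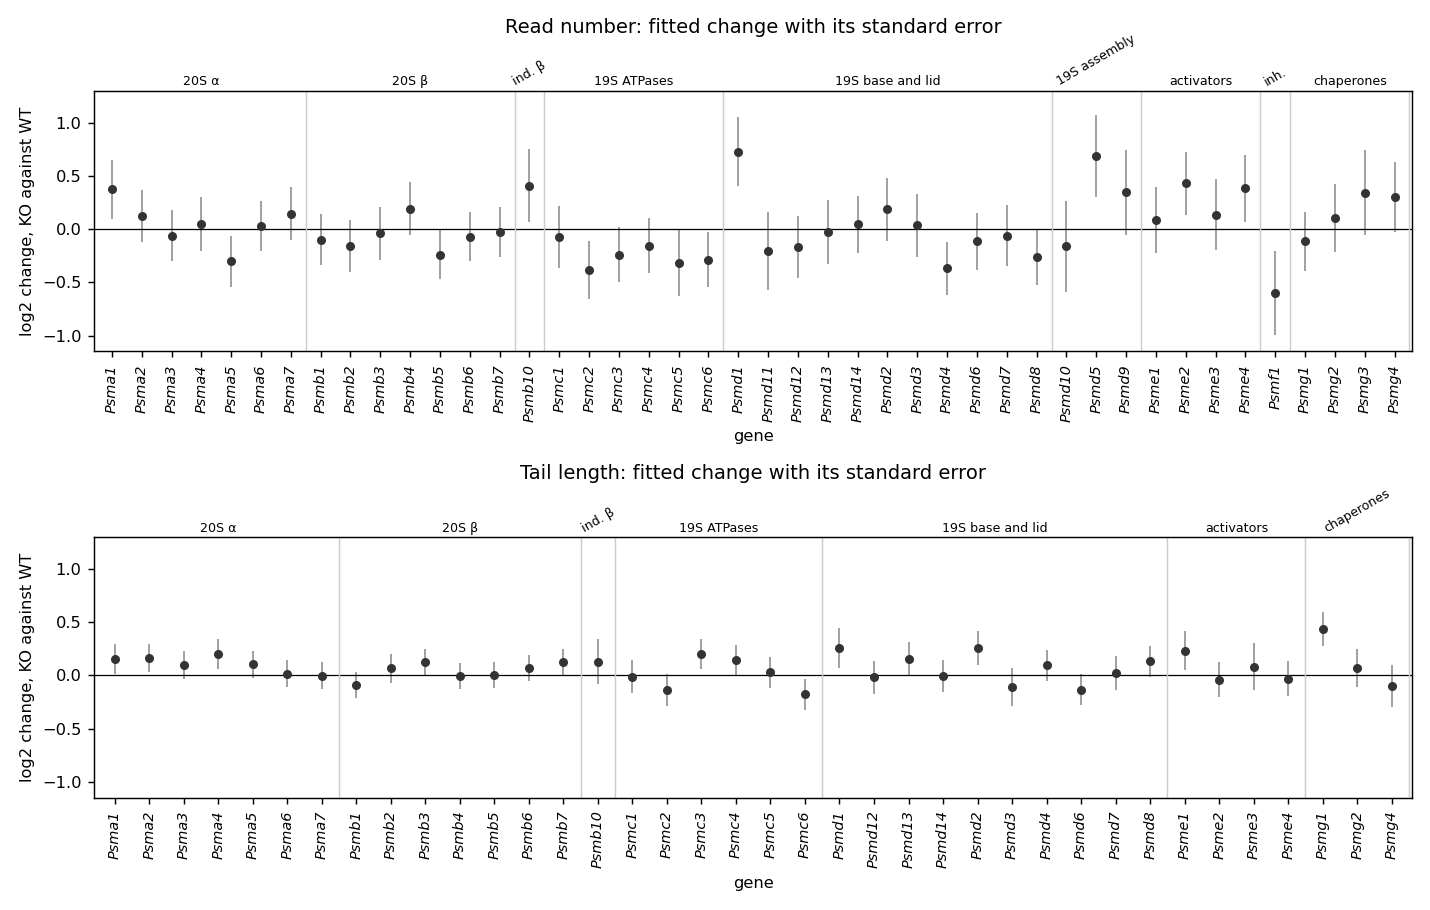
Fitted log2 change, KO against WT, of each proteasome gene for read number (top, 44 genes) and median tail length (bottom, 38 genes). Bars give limma's standard error, which draws on the variance of all tested genes. No gene passed an adjusted p of 0.05. Psmd1 (0.73) has the largest change in read number and Psmg1 (0.43) the largest in tail length.

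Tail length was taken as the median over the reads of a gene in each library, and a gene needed 20 or more reads in every library. Of the 47 members 38 met this, among them 15 core genes, 20 regulatory genes and 3 chaperones; the 9 others were Psma8, Psmb9, Psmd5, Psmd9, Psmd10, Psmd11, Psme2b, Psmf1 and Psmg3. The tails of the members were shorter than those of most tested genes in each library. The medians over the members were 91.0, 99.3, 99.0 and 96.7 nt. Over all 1935 tested genes it was 102.1, 109.3, 110.0 and 102.0 nt. The difference was -11.2, -10.1, -10.9 and -5.28 nt, or -9.36 nt ± 2.76 (SD, n = 4 libraries). Of the 38 members 30, 34, 34 and 27 lay below the median of all tested genes. The members shared libraries, and no test across genes was made of this difference.

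Very short tails were also more frequent among reads of the members. In the WT libraries 4.72% (95% Wilson interval 4.15 to 5.36%) and 4.76% (4.19 to 5.39%) of their reads had tails under 30 nt. The KO libraries had 2.66% (2.35 to 3.02%) and 3.81% (3.32 to 4.35%). Over all reads the shares were 2.35, 3.02, 1.55 and 2.75%. The shares of the members were above those of all reads in each library, by 2.01-, 1.57-, 1.72- and 1.38-fold. They were lower in both KO libraries than in both WT libraries, at 4.74% ± 0.0262 in WT and 3.24% ± 0.807 in KO (SD, n = 2 each). The fold over all reads overlapped between the genotypes, with 1.79 ± 0.305 in WT and 1.55 ± 0.237 in KO (SD, n = 2 each). Without Psmg1, Psmb7 and Psme4, which held many short tails, the shares of the other members were 4.25, 4.50, 2.35 and 3.48%, still above those of all reads. Long tails of 150 nt or more made up 17.2, 19.7, 19.1 and 19.3% of the reads of the members, against 18.8, 24.0, 23.7 and 19.6% of all reads.

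**Figure D3:**
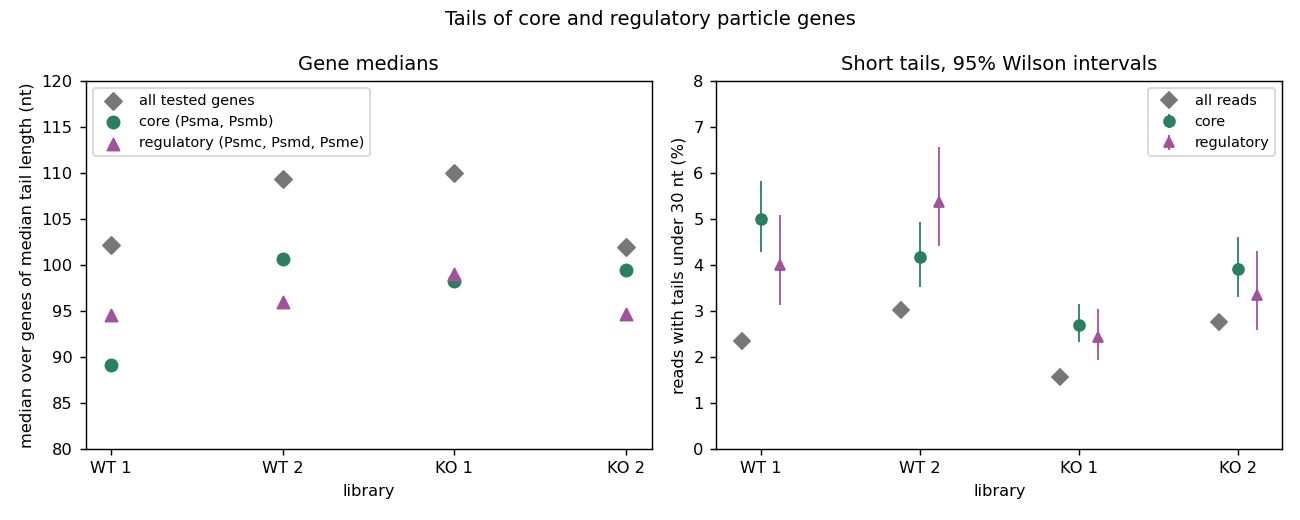
Left, median over genes of the median tail length in nt, in each of the 4 libraries, for all 1935 tested genes, 15 core and 20 regulatory genes; the axis starts at 80 nt. Right, percent of reads with tails under 30 nt with 95% Wilson intervals. In each library both particles lie below all tested genes on the left and above all reads on the right.

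Core and regulatory genes did not differ in tail length by more than the spread between libraries. The core medians were 89.1, 100.6, 98.3 and 99.4 nt. The regulatory medians were 94.6, 96.0, 99.0 and 94.7 nt. The difference of core minus regulatory was -5.45, 4.63, -0.748 and 4.74 nt, with a mean of 0.793 nt ± 4.88 (SD, n = 4). Its sign differed between the libraries. WT 1 held the shortest tail of the 4 libraries for 11 of the 15 core genes, or 73.3%, against 38.1% of all tested genes and 5 of the 20 regulatory genes.

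Among the members, mean tail lengths over the 4 libraries ran from 75.02 nt to 119.8 nt, with an SD over members of 8.85 nt. The median SD of a member between single libraries was 8.33 nt, so the order of most members within a single library was not resolved. The SD over members is one of 4-library means, so the 2 values are not the same measure. Spearman's rho of tail length between libraries over the 38 members ranged from 0.0279 for WT 1 with WT 2 to 0.583 for KO 1 with KO 2. This is far below the values for read number. The points of each correlation share a library and its depth. For tail length set against read number, rho over the members of a library was -0.142, -0.00788, -0.0708 and -0.207. Over all 1935 tested genes it was -0.169, -0.0605, -0.0973 and -0.0148.

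A few members kept their place. Psmb2 (ENSMUSG00000028837.8) had the longest tails of the tested core genes by the mean over libraries, with medians of 119.7, 113.3, 125.5 and 118.4 nt, and was behind Psmb10 in WT 2. It took ranks 35 to 38 of 38, counted from the shortest. Psmb6 (ENSMUSG00000018286.6) had 78.3, 90.3, 90 and 86.1 nt, and Psmb7 (ENSMUSG00000026750.6) had 75.4, 89.3, 90.7 and 87.8 nt. Their ranks ran from 4 to 10 of 38. Psmb2 exceeded Psmb6 by 33.1 nt ± 7.65 and Psmb7 by 33.4 nt ± 8.51 (SD, n = 4). The exact 95% binomial intervals of the medians did not overlap in any of the 4 libraries for either pair. The third catalytic subunit, Psmb5 (ENSMUSG00000022193.7), had 89.4, 96.1, 91.8 and 94.4 nt. It was shorter than Psmb2 in 4 of 4 libraries, with intervals apart in 3. These pairs were chosen after the values were seen and the differences are a description.

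By the mean over libraries, Psma2 had the longest tails of the α ring, with 90.3, 104.0, 108.2 and 109.0 nt, and Psma4 the shortest, with 79.2, 91.0, 95.8 and 99.4 nt. Neither place held in every library: Psma6 was longer than Psma2 in WT 1, and Psma1 was shorter than Psma4 in WT 2, KO 1 and KO 2. Psma6 varied least of the 38 members, at 99.3, 100.6, 100.7 and 101.6 nt. By the same mean the ATPase genes ran from Psmc3, with 93.0, 72.9, 97.7 and 91.5 nt, to Psmc4, with 88.0, 101.7, 111.9 and 97.3 nt. These ranges overlap. Among base and lid genes, Psmd13 had the shortest mean, with 82.0, 81.5, 90.7 and 91.5 nt, and Psmd8 the longest, with 100.1, 99.9, 105.5 and 114.0 nt. Psmd13 was the shortest of the tested genes of the group in no library, and Psmd8 was the longest in KO 1 alone. The ubiquitin receptor Psmd4 had 74.1, 107.6, 96.3 and 94.5 nt, and the deubiquitinase Psmd14 had 85.5, 102.5, 91.5 and 94.9 nt, with the genotypes overlapping in both.

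The activator partners Psme1 and Psme2, which form a joint ring, lay apart. Psme1 had 98.3, 122.6, 119.97 and 138.6 nt, and Psme2 had 84.0, 98.7, 94.96 and 82.5 nt. Psme1 was longer in 4 of 4 libraries, by 29.8 nt ± 18.2 (SD, n = 4), with intervals of the medians apart in both KO libraries and overlapping in both WT libraries. Psme4 had the shortest mean of the activators, with 94.3, 83.6, 88.7 and 85.2 nt, but was longer than Psme2 in WT 1 and KO 2. The chaperone Psmg2 had 111.6, 106.8, 104.2 and 125.8 nt. Inducible Psmb10, on 20 to 56 reads, had 72.8, 121.2, 100.3 and 105.2 nt.

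**Figure D4:**
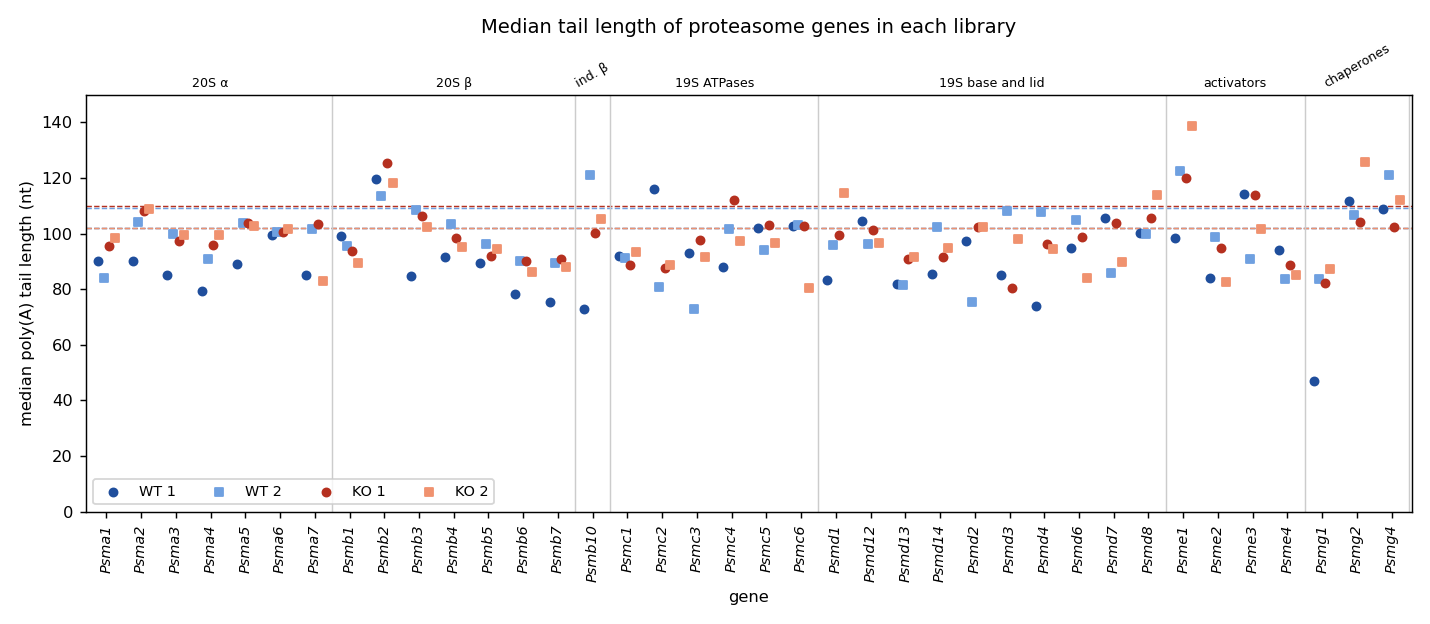
Median tail length in nt of the 38 proteasome genes with enough reads, by role, with 1 point for each library (blue WT, red KO). Dashed lines give the median over all tested genes in each library. Most points lie below the lines. Psmb2 lies above them, and Psmg1 in WT 1, at 47.0 nt, is the lowest point.

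Tail length was compared between KO and WT with limma. Of the 38 members 0 passed an adjusted p of 0.05, against a background of 0% of 1935 genes. At an unadjusted p under 0.05 there was 1, or 2.63%, against 2.33% of all tested genes. The libraries did not overlap for 8 members with longer tails in KO, or 21.1% against 14.7% of all genes. They did not overlap for 1 member with shorter tails in KO, Psmb1, or 2.63% against 11.8%. The median log2 change was 0.07 over the members, with 25 of 38 above 0 (65.8%, against 51.8% of all tested genes), and 0.01 over all tested genes. Over the core genes it was 0.10, with 12 of 15 above 0, and over the regulatory genes 0.02, with 11 of 20 above 0. The sign of the core value depended on WT 1. Without it the core median was -0.02, with 5 of 15 above 0, and the median over the members was 0.01. Over all tested genes the median then fell as well, to -0.05. Without WT 2 the core median was 0.17, and that over all tested genes was 0.04. The regulatory median was 0.08 without KO 2, 0.06 without WT 2, 0.06 without WT 1 and 0.02 without KO 1. Over all tested genes it was 0.06 without KO 2 and -0.04 without KO 1.

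The member with the smallest p for tail length was Psmg1 (ENSMUSG00000022913.16), a chaperone that pairs with Psmg2 in the assembly of the α ring. Its WT medians were 47.0 nt (exact 95% binomial interval 43 to 71.0 nt) and 83.5 nt (56.4 to 95 nt). Its KO medians were 82.2 nt (73.5 to 93.5 nt) and 87.3 nt (70.6 to 102.5 nt). They rested on 63, 55, 103 and 64 reads. WT 1 was low, and WT 2 lay between the KO libraries. The log2 change was 0.43 with a standard error of 0.16 and did not pass (limma adjusted p = 0.9998). Without WT 1 it was 0.02, and without WT 2 it was 0.85 and passed (limma adjusted p = 0.0206). Over 14 alternatives the adjusted p ranged from 0.0206 to 0.9999.

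The libraries also differed in the share of short tails among Psmg1 reads. Of its WT reads 55.6% (95% Wilson interval 43.3 to 67.2%) and 41.8% (29.7 to 55.0%) were under 60 nt. Of its KO reads 27.2% (19.5 to 36.5%) and 21.9% (13.5 to 33.4%) were. Both WT libraries were above both KO libraries, and the intervals of WT 2 overlapped those of KO. Under 30 nt the shares were 15.9, 18.2, 6.80 and 6.25%. The 60 nt length was chosen after the values were seen, on reads of a member picked for its p-value. The share under 60 nt over all reads is not given here. Under 30 nt the shares over all members were also lower in both KO libraries, at 4.72, 4.76, 2.66 and 3.81%. Over all reads they were 2.35, 3.02, 1.55 and 2.75%. Whether the Psmg1 shares differ from this background was not tested. By read number Psmg1 had 159.4 and 153.4 scaled RPM in WT and 147.5 and 141.7 in KO, so both KO libraries were below both WT libraries, with a log2 change of -0.11 (limma adjusted p = 0.917).

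**Figure D5:**
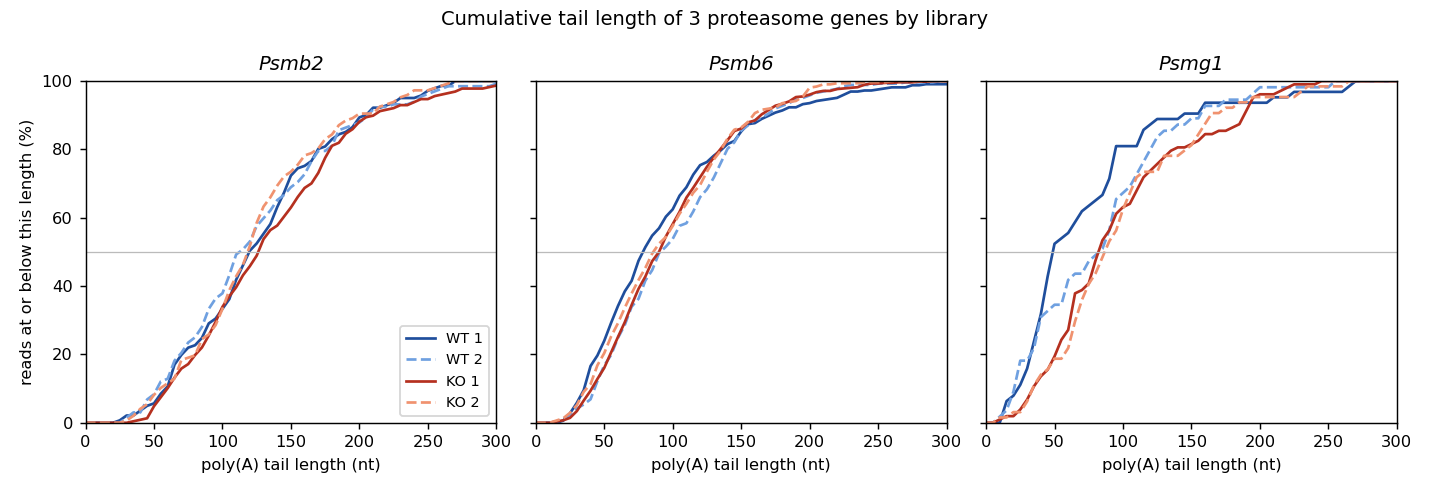
Percent of reads with a tail at or below the length on the x axis (nt), for Psmb2, Psmb6 and Psmg1 in each of the 4 libraries (blue WT, red KO; replicate 1 solid, replicate 2 dashed). The curves of Psmb2 lie to the right of those of Psmb6, and the WT 1 curve of Psmg1 stands to the left, with 55.6% of reads under 60 nt.

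The next smallest p-values belonged to Psmd2, a base scaffold subunit, and Psmc3, an ATPase. Psmd2 had 97.3 and 75.5 nt in WT and 102.4 and 102.5 nt in KO, a log2 change of 0.26. Psmc3 had a log2 change of 0.20. Neither passed (limma adjusted p = 0.9998 for both). Without WT 1 the changes were 0.44 for Psmd2 and 0.38 for Psmc3, and without WT 2 they were 0.07 and 0.02. Psmd1 had 83.3 and 95.9 nt in WT and 99.4 and 114.4 nt in KO, a log2 change of 0.26 (limma adjusted p = 0.9998). Both its tails and its reads were above WT in both KO libraries. The share of all genes with both was not counted. For each measure alone it was 14.7% for tails and 19.4% for reads.

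Several transcripts of a gene could be compared for 5 members with at least 15 reads per transcript and library. The 2 transcripts of Psmc3 had mean medians of 84.6 nt ± 12.5 and 97.0 nt ± 15.6 (SD, n = 4). The transcripts of Psma7 had 92.4 nt ± 10.02 and 93.5 nt ± 14.8, those of Psmd2 94.7 nt ± 11.1 and 96.1 nt ± 17.4, and those of Psmd4 94.4 nt ± 13.8 and 90.3 nt ± 19. The 3 transcripts of Psmd8 ran from 100.03 to 105.1 nt. Within libraries the second transcript of Psmc3 was longer by 12.4 nt ± 10.6 (SD, n = 4), in 3 of 4 libraries. The differences were 1.09 nt ± 7.59 for Psma7, 1.37 nt ± 8.19 for Psmd2 and -4.14 nt ± 18.5 for Psmd4, each smaller than its SD. No test was made of these differences.

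The deposited table also assigned each symbol to a class of Mov10 target, by the authors, whose source is not stated. Of the members 7 were targets with m6A (methylated adenosine within mRNA), 12 targets without m6A, 20 non-targets and 8 in no class. The targets with m6A were Psmb7, Psmd1, Psmd2, Psmd4, Psmd5, Psme3 and Psme4. Of these, 6 of 7 were in the regulatory set, which holds 25 of the 47 members. The 6 include the chaperone Psmd5 and the activators Psme3 and Psme4. Among the members tested for read number the targets with m6A made up 15.9%, against 18.8% of all tested genes. By read number the members among the targets with m6A had a median of 0.19 on the log2 scale (5 of 7 above 0), and all genes of that class had 0.17. The members among the targets without m6A had -0.13 (2 of 12 above 0), against 0.01 for all genes of the class. The non-targets had 0.04 (9 of 17 above 0), against -0.10.

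Other genes of the ubiquitin-proteasome pathway came from a list of 30, which holds ubiquitin genes, activating enzymes, shuttle factors, assembly factors and transcription factors of proteasome genes. Of these 29 had reads, 26 were tested for read number and 15 for tail length. Of them 0 passed in either direction in either limma test, against 0% of all genes in both. By read number 15 were above 0 and 11 below, with a median log2 change of 0.08, and by tail length 9 were above 0 and 6 below, with a median of 0.01. The ubiquitin gene Ubb had 3790 and 2214 scaled RPM in WT and 1776 and 1953 in KO, a log2 change of -0.65 (limma adjusted p = 0.364). The shuttle factor Rad23b, which brings ubiquitinated proteins to the proteasome, had 177.1 and 167.3 in WT and 230.5 and 310.0 in KO, a log2 change of 0.62 (limma adjusted p = 0.458). Nploc4, a cofactor of the unfoldase Vcp, had a log2 change of 0.95 on 7 to 23 reads (limma adjusted p = 0.570). For tail length the smallest p-values were those of Ubb, Nfe2l2 and Rps27a, with log2 changes of -0.12, -0.22 and -0.09.

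Promoters were searched for letters that the members share. The antioxidant response element, with the letters TGACNNNGC, is shown because it is the element bound by the factors Nfe2l1 and Nfe2l2, which are known to regulate proteasome genes. RefSeq start sites of GRCm38.p6 matched 39 of the 47 members, and both strands of the 250 bases before each start were read. The letters occurred in 5 of the 39 members, or 12.8%, against 14.5% of tested genes and 11.5% of all genes with a promoter in the table. In the windows below, written 5′ to 3′ on the strand of the gene, capitals mark the match, which is reversed in Psmc6 and Psmd12.
Psmb5, chr14:54618024-54618052, minus strand: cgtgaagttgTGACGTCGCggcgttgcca
Psmb6, chr11:70525338-70525356, plus strand: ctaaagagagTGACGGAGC
Psmc6, chr14:45329587-45329615, plus strand: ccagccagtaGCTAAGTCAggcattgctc
Psmd12, chr11:107479278-107479299, plus strand: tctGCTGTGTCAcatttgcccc
Psmd9, chr5:123228149-123228177, plus strand: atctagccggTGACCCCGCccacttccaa
The match of Psmb6 begins 9 bases before the start and that of Psmb5 47 bases before it. The share among the members is near the background.

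Of 10 motifs searched, the one with the largest share among the members after CCAAT was CCGGAAG, the core letters of sites of ETS factors. It occurred in 12 of 39 members, or 30.8%, against 20.4% of tested genes and 7.83% of all genes. CGGAAGT and GCGGAAG, which share the letters CGGAAG with it, were also searched. They occurred in 23.1% and 15.4% of the members, against 14.9% and 12.5% of tested genes. CCGGAAG is shown because of its share, and none of these differences was tested. The matches nearest to the start are shown with capitals for the motif, reversed in each.
Psmd11, chr11:80428594-80428614, plus strand: gagggcgggtCTTCCGGgtgt
Psmd12, chr11:107479501-107479527, plus strand: gagcgggcgaCTTCCGGtgcgagtgac
Psmc2, chr5:21786713-21786739, plus strand: cgcggagctaCTTCCGGtggggaagag
CCAAT occurred in 33.3% of the members and 42.6% of tested genes, and TATAAA in 7.69% and 6.89%. A match is a description of letters and does not show a bound site.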

How the data were processed

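Per the labels' protocols, polyadenylated RNA was selected on oligo(dT) beads and sequenced with the SQK-RNA002 direct RNA kit on R9 flow cells, so molecules without a tail are missed. The submitters' processing notes name minimap2 2.20; the basecaller, tail length tool, annotation version and read filters are not given in the sources used here. The deposited table gives for each read a transcript, symbol, library and tail length in nt, an estimate per molecule and not a count, plus the authors' yes-or-no classes. Of 1903922 reads, 3 with a length of 0 were left out. Replicates differed by more than counting noise (chi-square per degree of freedom 4.84 for WT and 2.27 for KO).

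Reads were collapsed to a median tail length and a read number per gene and library. Both were tested with limma 3.58.1 in R 4.3.3 over all genes, with Benjamini-Hochberg adjustment and a threshold of 0.05. The tail length test ran on log2 medians with read number as trend covariate. The read number test used voom, 0.5 added reads and median-of-ratios scaling. Both were tested on simulated data with planted changes, where the read number test missed most of the smaller ones. Alternatives varied the read minimum, the summary of tail length, the scaling, the transcripts used and the libraries kept. Intervals cover counting error only. Symbols were used as deposited, though 53.4% of all reads lay on transcripts with several symbols.

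Named were Mov10, the catalytic, inducible, Psmd4 and Psmd14 genes, in each role group the members with most and fewest reads and longest and shortest tails, and the 3 smallest p-values in each test. The members, lists and rules were chosen with earlier results of these data known. Markers and the pathway list were fixed by symbol. Python 3.11.15, numpy 2.4.6, pandas 2.3.3, scipy 1.17.1 and matplotlib 3.10.9 were used.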

Additional observations from a re-analysis of the deposited data

How the results depend on the processing

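With 2 libraries per genotype, single libraries decided several values. No alternative that kept all 4 libraries called a member in either limma test; without WT 2, 1 member was called for tail length (Psmg1, adjusted p = 0.0206), so that count ranged from 0 to 1 with a library left out. The core minus regulatory difference in log2 tail length change, 0.07, was -0.0245 with the arithmetic mean and -0.0211 with the mean of log2 lengths, and it ranged from -0.0797 (without WT 1) to 0.11 (without WT 2). The tails of the members were -13.8 nt from all tested genes when 1 read per library was enough; the other alternatives gave values from -10.9 to -8.46 nt. The other log2 medians and differences moved by less than the SD between replicates. The other differences in tail length level moved by less than their SD over the 4 libraries. Without WT 1, 11 of 38 members had the other sign of tail length change. Libraries of the same replicate number did not deviate together (r = 0.0135 for tail length and 0.0155 for read number), and the replicate block called 0 members in either test. Over all genes, read number calls, 0 as reported, were 66 with the replicate block, 96 without the filter, 7 with scaling by total reads, 93 without WT 1 and 451 without WT 2; tail length calls were 1 with at least 10 reads and 2 without WT 2. Depth limits members under 20 reads per library, whose tails were not tested.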
